A study of Mus musculus with 8 samples.

Results

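CHD4 sites were described at 10 mouse genes that encode tissue-restricted regulators of alternative splicing: Rbfox1, Rbfox2, Rbfox3, Rbm20, Rbm24, Mbnl1, Mbnl2, Celf1, Celf2 and Qk. CHD4 is the chromatin-remodelling ATPase of the NuRD complex. TBX5, a T-box factor, is needed for atrial gene expression. Peaks of the 4 CHD4 ChIP-seq lists that overlapped by at least 1 bp were merged into sites, and every site that touched the body of a member gene or the 10 kb on either side was kept (build mm10). This gave 483 sites of 121267 in the whole series, at 10 of 21887 protein-coding genes. The rule uses gene names and positions and no value of the peaks, but the members were chosen with earlier results of these data known.

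The atria, right and left, came from Tbx5 flox/flox mice, so the floxed alleles were shared by both groups. The mice had received an AAV9 vector on postnatal day 2. AAV9:Nppa-Cre carried the recombinase that removes floxed DNA, and AAV9:Nppa-EGFP was the control. Both vectors use sequence of Nppa, a gene of atrial cardiomyocytes, while the cell type of the ChIP material is labelled mixed, so cells in which Nppa is inactive contribute to every library. There were 2 libraries titled control and 2 titled TBX5 KO. The labels do not say whether the libraries of a group came from separate animals or pools, so differences between replicates may be technical in part.

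The direction of every comparison rests on the sample titles. The genotype and treatment fields of the same samples give the opposite assignment, and the treatment text calls the Cre-treated mice CHD4 KO instead of TBX5 KO. The age at dissection is not given in the sources used here.

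RBFOX, MBNL, CELF, RBM20, RBM24 and QKI proteins bind short motifs in pre-mRNA and decide which exons are joined. Position matters for RBFOX and MBNL proteins: binding downstream of an exon tends to favour its inclusion, and binding upstream or within it tends to favour skipping. MBNL and CELF proteins act in opposite directions on many exons during postnatal heart development, RBM20 represses exons of titin and of calcium-handling transcripts, and RBFOX1 and RBFOX3 (the neuronal antigen NeuN) are best known from neurons. CHD4 peaks mark where the remodeller was found on these genes and do not measure their expression or splicing.

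Promoter sequences differed in base composition between the members, and the data bear on them because each could be scored for a peak in every library. RefSeq (GRCm38.p6) gave 14 windows of 300 bases, 250 before and 50 after a start, for 8 of the members. Rbfox2 and Rbm20 had none. A peak lay over 8 of the 14 windows in all 4 libraries, over 5 in no library, and over 1, an internal start of Rbfox1, in both control libraries and in neither TBX5 KO library. The 250 bases before the start are shown for that window and for 3 windows with a peak in every library. They read 5′ to 3′ on the gene's strand, and capitals mark each CG dinucleotide.
Rbfox1 internal start, chr16:7069585-7069834, plus strand: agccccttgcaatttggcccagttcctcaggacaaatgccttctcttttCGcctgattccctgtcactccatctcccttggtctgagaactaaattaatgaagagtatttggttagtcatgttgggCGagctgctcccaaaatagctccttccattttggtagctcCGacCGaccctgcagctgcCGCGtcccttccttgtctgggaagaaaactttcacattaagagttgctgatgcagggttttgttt
Rbm24, chr13:46418050-46418299, plus strand: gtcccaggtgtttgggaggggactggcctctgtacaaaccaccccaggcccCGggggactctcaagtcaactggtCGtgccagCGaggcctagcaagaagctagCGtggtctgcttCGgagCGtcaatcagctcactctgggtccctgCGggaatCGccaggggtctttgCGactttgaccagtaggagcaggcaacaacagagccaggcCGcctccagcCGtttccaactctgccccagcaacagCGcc
Mbnl2, chr14:120275419-120275668, plus strand: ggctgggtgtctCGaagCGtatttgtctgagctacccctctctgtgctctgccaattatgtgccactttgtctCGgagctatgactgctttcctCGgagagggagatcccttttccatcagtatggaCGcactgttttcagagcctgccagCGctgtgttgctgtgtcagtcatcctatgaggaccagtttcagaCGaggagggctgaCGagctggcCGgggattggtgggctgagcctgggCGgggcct
Qk, chr17:10319362-10319611, minus strand: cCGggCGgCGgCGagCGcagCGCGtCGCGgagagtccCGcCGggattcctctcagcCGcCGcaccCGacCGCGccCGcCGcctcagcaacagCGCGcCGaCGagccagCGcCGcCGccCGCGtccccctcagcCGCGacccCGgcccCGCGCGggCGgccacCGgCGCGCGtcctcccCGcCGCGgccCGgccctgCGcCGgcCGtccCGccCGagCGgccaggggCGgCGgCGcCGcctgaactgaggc

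The Rbfox1 stretch held 6 CG dinucleotides, that of Mbnl2 10, that of Rbm24 12 and that of Qk 52. The Qk and Rbm24 stretches had a G+C content of 84.8% and 62.4%, against 57.2% at Mbnl2 and 48.4% at Rbfox1. These examples do not set the calling patterns apart by CG content, since 2 of the Celf2 windows with a peak in all 4 libraries held only 7 and 5 CG dinucleotides before the start. Over whole 300-base windows the Rbfox1 internal start had 7 CG dinucleotides. The median was 5 over the 527 windows of all genes that had a peak in both control libraries alone and 22 over the 12934 windows with a peak in all 4 libraries. Over all 32851 windows it was 7, the value of the Rbfox1 window.

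Of the motifs searched on both strands in these windows, the T-box core AGGTGT was found in 1 Rbm24 window, 1 Mbnl1 window and 1 Celf2 window. The Mbnl1 and Celf2 windows that held it had no peak in any library. At Rbm24 it stood 245 bases before the Rbm24 start, within the stretch printed, and 13.7% of all promoter windows held it. A GATA match (AGATAA, in 11.2% of all windows) was found in 1 member window, that of the Celf2 start with the highest coordinate, which had no peak. The TEAD motif (CATTCC) matched in that same Celf2 window, and in 14.7% of all windows. Matches of different motifs did not overlap. The MEF2 box, in 0.557% of all windows, was found in none. The Rbfox1 internal window held none of the 4. These matches describe letters in a window and show no binding.

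Summed over the 10 genes, fewer CHD4 peaks were called in TBX5 KO atria, and those called covered less DNA. The control libraries had 425 and 405 peaks at the 10 genes and the TBX5 KO libraries 196 and 262, a mean of 415 ± 14.1 (SD, n = 2) against 229 ± 46.7 (SD, n = 2). The groups did not overlap, and the difference of 186 peaks (1.81-fold) had a two-sided exact permutation p of 0.333, the smallest that 2 against 2 libraries can give. Covered DNA was 470 and 450 kb in control and 139 and 194 kb in TBX5 KO, a 2.76-fold difference with the same exact permutation p of 0.333. An exact permutation test over this number of libraries cannot pass a threshold of 0.05, and adjustment over the 2 tests left both at an exact p of 0.333.

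The whole lists differed too, and this sets the background. They held 99924 and 91520 peaks in control and 61173 and 69557 in TBX5 KO, 1.46-fold fewer, and covered 1.75-fold less DNA. Read totals are not in the lists, so the depth of each library is unknown and no precision can be derived from it. In bulk atria, fewer cells with CHD4 on a site and less CHD4 per cell cannot be told apart. When each list was reduced to its 61173 strongest peaks by −log10 p, the 10 genes had 218 and 236 peaks in control and 196 and 222 in TBX5 KO. These groups overlapped (ratio 1.09, exact permutation p = 0.667). Covered DNA at the 10 genes still differed at equal list length, with 371 and 356 kb in control against 139 and 178 kb in TBX5 KO (2.29-fold). The difference in peak number thus depended on the length of the lists, and the difference in extent was present with and without that restriction. Covered DNA of the whole lists at equal length was not computed. The 2.29-fold difference therefore has no background beside it, and whether it is particular to these genes was not tested.

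**Figure D1:**
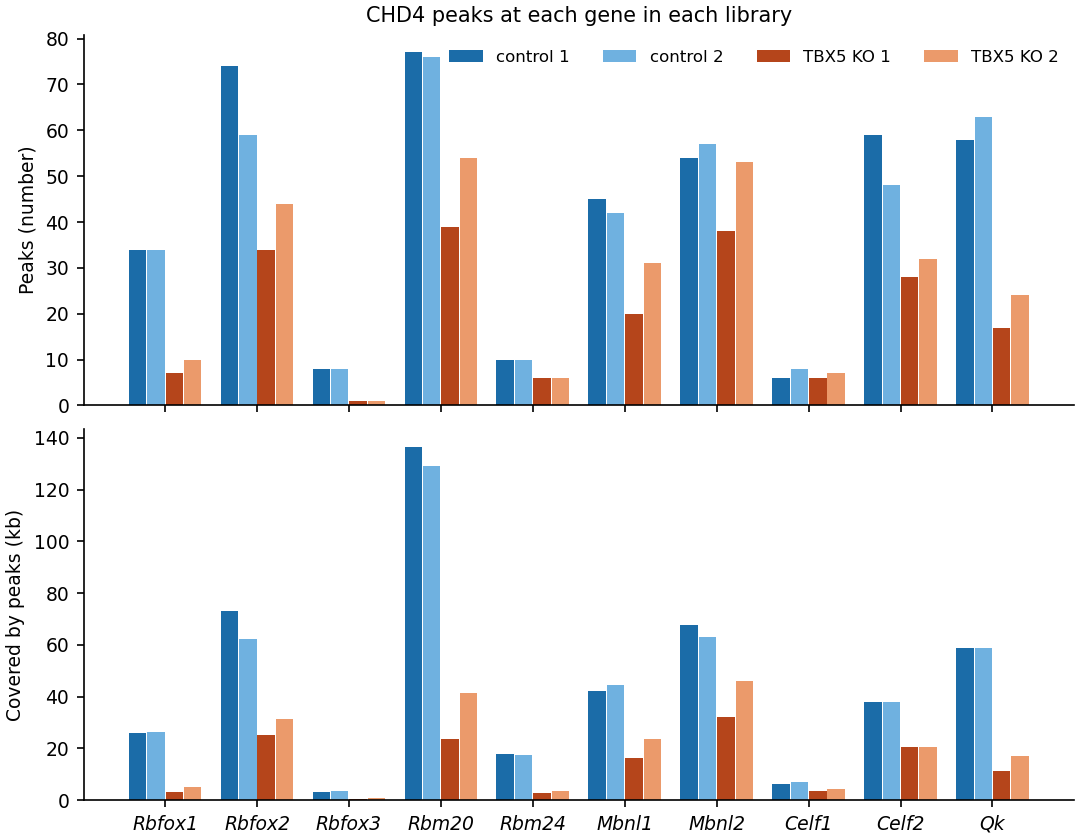
Peaks (number, upper panel) and DNA covered by them (kb, lower panel) at each gene in each of the 4 libraries, 1 bar per library. Rbm20 covered 136 and 129 kb in control against 23.8 and 41.3 kb in TBX5 KO, and the bars of Celf1 overlap between groups in peak number.

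By site, 269 of the 483 were called in both control libraries. Of these 269, 114 (42.4%) were called in all 4 libraries, 56 in 1 TBX5 KO library and 99 in neither, here named control-only. The control-only share was 36.8% (Wilson 95% interval 31.3 to 42.7%, counting error only, since sites of 1 gene are not independent). Over all 68137 sites called in both control libraries the control-only share was 24.9%, and 55.8% were called in all 4 libraries. The members' sites were somewhat weaker in control than the average site, with a median percentile of −log10 p within their lists of 51.9 against 61.4. Over all sites the control-only share went from 64.1% in the lowest decile of control rank to 0.426% in the highest. If each member site had the control-only share of its own decile of control rank, 81.2 sites (30.2%) would have been control-only instead of 99. Rbfox1 (17 against 7.34) and Rbm20 (19 against 11.9) exceeded their numbers most, while Rbfox2, Mbnl2, Celf1 and Celf2 fell below theirs. The pooled excess is thus not a trait of all 10 genes. With lists of equal length the share was 40 of 163 (24.5%) at the members and 14.8% over all sites.

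No member had a site that both TBX5 KO lists held and both control lists lacked, of 117 sites present in both lists. A count of 0 of 117 allows a share of up to 2.56%, and over all 40679 such sites the share was 1.91%. The absence of such sites at these genes was therefore not distinguishable from the rate elsewhere. In lists of equal length there were 4 of 110, 1 each at Rbfox1, Mbnl1, Mbnl2 and Celf2, against 5.89% over all sites.

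**Figure D2:**
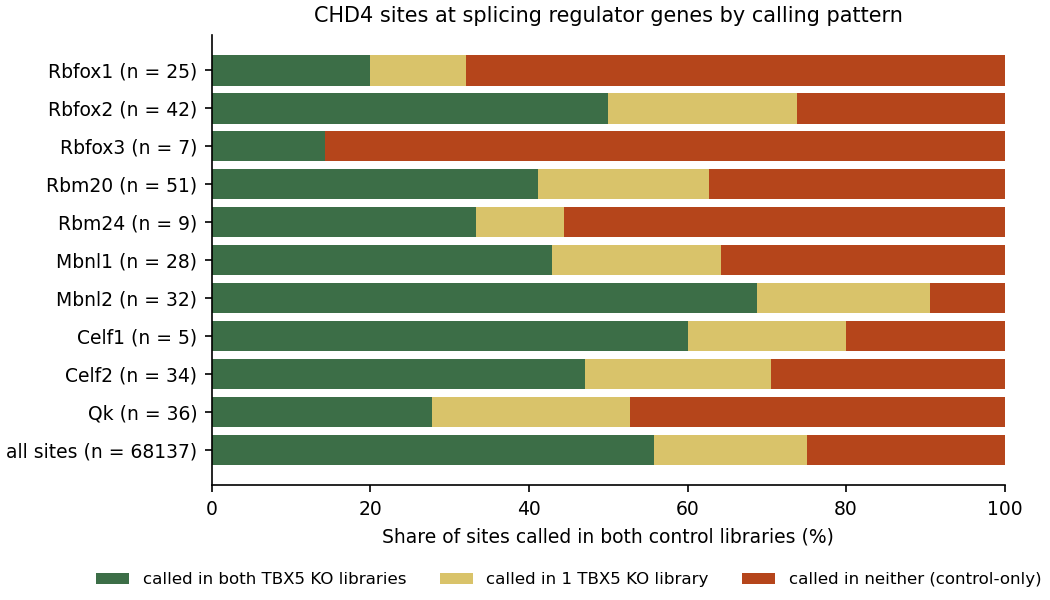
Share (%) of the sites called in both control libraries that were also called in both, in 1 or in neither TBX5 KO library, for each gene and for all sites, with the number of sites in parentheses. The control-only share runs from 9.38% at Mbnl2 to 85.7% at Rbfox3.

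Gene by gene the control-only share varied widely, and for several genes it rose when 1 library was left out, as it did over all sites. It was 85.7% at Rbfox3 (6 of 7 sites), 68.0% at Rbfox1 (17 of 25), 55.6% at Rbm24 (5 of 9), 47.2% at Qk (17 of 36), 37.3% at Rbm20 (19 of 51), 35.7% at Mbnl1 (10 of 28), 29.4% at Celf2 (10 of 34), 26.2% at Rbfox2 (11 of 42), 20% at Celf1 (1 of 5) and 9.38% at Mbnl2 (3 of 32). Neighbours in this order had overlapping Wilson intervals, while that of Rbfox1 (48.4 to 82.8%) lay wholly above that of Mbnl2 (3.24 to 24.2%). Leaving out 1 library moved the share by over 1.5 times at 6 genes. Without control 1 it was 32.7% at Mbnl2, 41.1% at Rbfox2, 46.8% at Celf2 and 50% at Celf1. Without control 2 it was 29.4% at Mbnl2, 54.2% at Rbfox2, 49.1% at Celf2 and 33.3% at Celf1. Without TBX5 KO 1 it was 45.7% at Celf2. Without TBX5 KO 2 it was 30.3% at Mbnl2, 42.9% at Rbfox2, 40% at Celf1, 55.2% at Mbnl1 and 58.8% at Rbm20. A site then has to be called in, or missing from, fewer lists, and over all sites the share was 36.9%, 40.6%, 31.3% and 37.9% in the same order.

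Groups did not overlap in peak number at 9 of the 10 genes, with more peaks in each control than in each TBX5 KO library, against 36.4% of 16191 protein-coding genes with a peak. They did not overlap in covered DNA at 10 of 10, against 71.1%. In lists of equal length, 5 of the 10 (Rbfox1, Rbfox3, Rbm20, Rbm24 and Qk) had more peaks in each control library, against 12.4% of 15900 genes. A further 4 (Rbfox2, Mbnl2, Celf1 and Celf2) had more in each TBX5 KO library, against 14.2%. In those lists these 4 genes still had less covered DNA in each TBX5 KO than in each control library. At Rbfox2 it was 52.7 and 45.4 kb in control against 25.0 and 29.1 kb. The values lay closest at Celf2, with 21.1 and 23.2 kb against 20.7 and 18.4 kb. In peak number the members thus exceeded the background in both directions. All 10 are among the 4714 genes with at least 5 sites in both control libraries. The backgrounds also hold genes with fewer peaks, where counts tie more easily. Genes with a like number of peaks were not compared, so these shares are not read as a trait of the members.

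Rbfox1 (chr16:5884793-7412480) encodes the RBFOX member of neurons, heart and skeletal muscle. It had 34 peaks in each control library against 7 and 10 in the TBX5 KO libraries, and they covered 26.1 and 26.4 kb against 3.13 and 5.03 kb. Both control libraries stood far above both TBX5 KO libraries, 4-fold in number and 6.43-fold in covered DNA, and in lists of equal length the numbers were 19, 22, 7 and 9 (2.56-fold). The 17 control-only sites compare with 7.34 from the control ranks of its sites. Of 4714 genes with at least 5 sites in both control libraries, 86 (1.82%) had a control-only share as high or higher.

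The sites of Rbfox1 were not spread evenly along its 1528 kb. None lay within 100 kb of the first start, at position 5884793, where the promoter window had no peak in any library. Within 100 kb of the internal start at position 7069835 there were 18 sites called in both control libraries, 13 of them control-only and 3 with a peak in every library. The internal promoter window printed above lay in one of the control-only sites, with peaks up to 1046 and 1656 bp wide and folds over local background of 3.21 and 3.62 in the control lists. The strongest site of the gene, chr16:7097180-7100989, lay further into the gene.

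That strongest Rbfox1 site was called in every library but stood lower in the TBX5 KO lists. Its highest fold over local background, the authors' value, was 14.4 and 11.8 in the control lists. In lists of equal length, where ranks can be set side by side, it stood at percentile 97.8 and 98.5 of −log10 p in control and at 65.8 and 75.2 in TBX5 KO. Such strongest sites were picked by their control rank, so some of a lower TBX5 KO rank comes with the choice. It covered 3810 and 3152 bp in control and 1311 and 1310 bp in TBX5 KO. The strongest control-only site, chr16:6085973-6086565, stood at percentile 73.0 and 83.5 in the full control lists. Of the 10 Rbfox1 sites above the median control rank of all sites, 5 were control-only, against 6.72% of all sites in that range. Their deciles of control rank would have given 1.02.

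**Figure D3:**
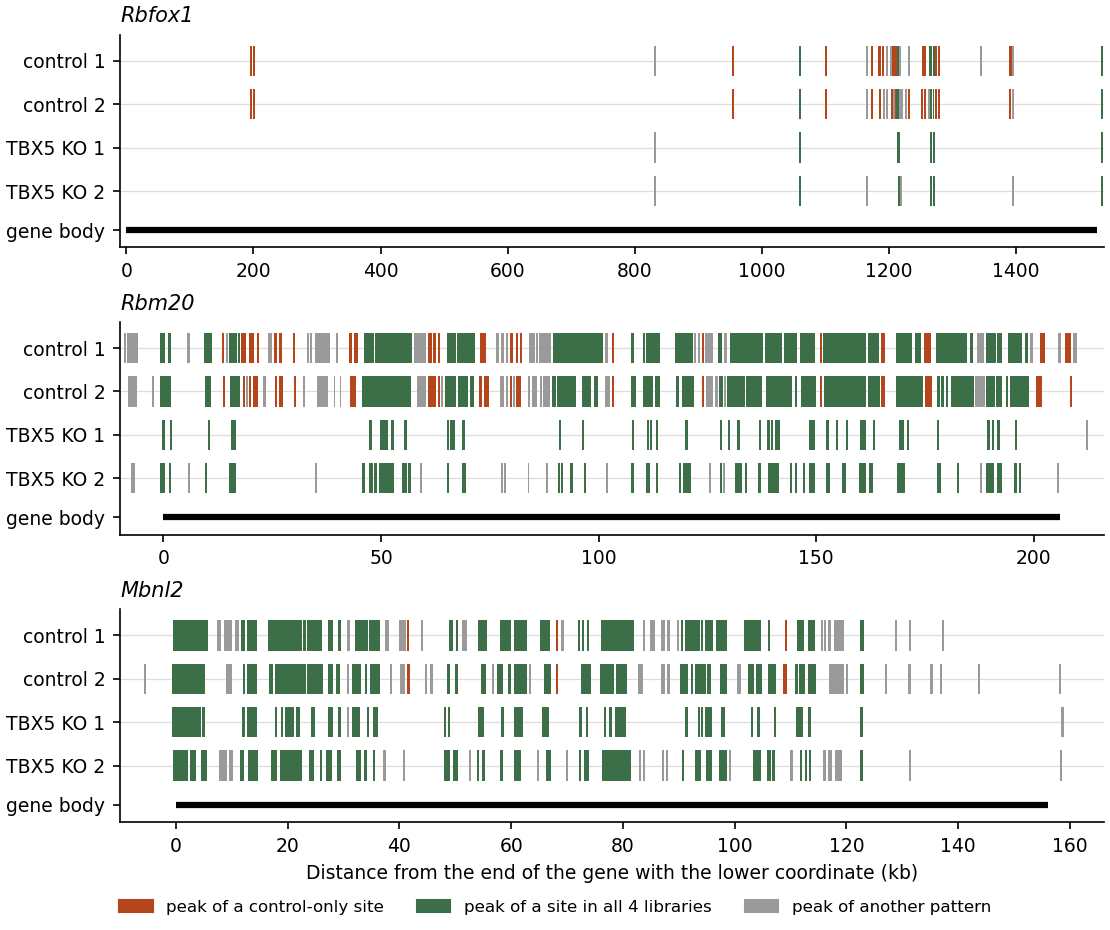
CHD4 peaks of each library along Rbfox1, Rbm20 and Mbnl2, in kb from the end of the gene with the lower coordinate, coloured by the calling pattern of their site; narrow peaks are drawn at a minimum width. Control peaks of Rbfox1 gather around the internal start near 1185 kb, where few TBX5 KO peaks remain, Rbm20 has long control peaks and short TBX5 KO peaks, and most Mbnl2 peaks belong to sites in all 4 libraries.

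Rbfox2 (chr15:77078990-77308434), the broadly expressed family member, had 74 and 59 peaks in control and 34 and 44 in TBX5 KO. At equal list length the numbers were 33, 33, 34 and 37, slightly higher in each TBX5 KO library. Its 11 control-only sites of 42 compare with 12.2 from control rank, and all 11 lay below the median control rank. Its strongest site, chr15:77304746-77308258 at the upper-coordinate end of the gene, was near the top of each list of equal length, at percentile 98.0, 98.0, 96.3 and 96.5. The strongest control-only site, chr15:77173063-77174518, stood at percentile 50.3 and 42.8 of the control lists. The widest control peak, 8972 bp in control 2, lay in chr15:77208947-77218894, where the covered bases were 8761, 8972, 4108 and 4007 bp. Rbfox2 covered 73.1 and 62.4 kb in control and 25.0 and 31.2 kb in TBX5 KO (2.41-fold).

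Rbfox3 (chr11:118489760-118911597) carried few and weak peaks. There were 8 in each control library and 1 in each TBX5 KO library, and at equal list length 5, 6, 1 and 1. Its strongest site, chr11:118667812-118668853, was itself control-only and stood at percentile 59.8 and 63.4. The only Rbfox3 site called in all 4 libraries also lay within 10 kb of another gene. With 7 sites, of which 2.90 would be control-only by rank, the Rbfox3 share has a wide interval (48.7 to 97.4%), and at equal list length it rests on 2 sites. Among the 4714 genes, 10 had a share as high.

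The RBM genes combined control-only sites with large differences in extent. Rbm20 (chr19:53660989-53867083) encodes the splicing repressor mutated in a dilated cardiomyopathy. It had 77 and 76 peaks in control and 39 and 54 in TBX5 KO, and covered 136 and 129 kb against 23.8 and 41.3 kb, a 4.08-fold difference. Rbm20 alone made up the largest block of covered DNA among the 10 genes in both control libraries. At equal list length the numbers were 50, 54, 39 and 49 peaks, and the covered DNA was 122, 119, 23.8 and 39.5 kb.

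At Rbm20 all 21 sites called in all 4 libraries covered fewer bases in each TBX5 KO than in each control library. Such narrowing held for 82 of 114 sites (71.9%) over the 10 genes and for 57.3% of the 38043 sites of the series called in all 4 libraries. The median ratio of covered bases, TBX5 KO over control, was 0.358 at Rbm20, 0.564 over the members and 0.747 over all such sites. The 21 Rbm20 sites are part of the 82. In control the members' shared sites were also wider, with medians of 1762.5 and 1621 bp against 1257 and 1142 bp over all such sites. Sites of a like control width were not compared. Of 24 Rbm20 sites below the median control rank, 16 were control-only and none was called in all 4 libraries. Of 27 above it, 3 were control-only and 21 were called in all 4. The strongest control-only one, chr19:53733523-53735876, stood at percentile 56.5 and 75.8 of the control lists.

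The Rbm20 sites with the lowest ratios, picked for them, are given first. The site at chr19:53750352-53761925 covered 11362 and 8378 bp in control and 512 and 1992 bp in TBX5 KO. The site at chr19:53838625-53847292 covered 7616 and 6986 bp against 310 and 1239 bp. Among the other broad sites, chr19:53812521-53822535 covered 9993 and 9713 bp in control and 2406 and 3248 bp in TBX5 KO, and chr19:53790598-53798721 covered 7485 and 7706 bp against 1330 and 2528 bp. The widest control peak of the gene, 11421 bp in control library 2, lay in chr19:53706545-53718005, where the covered bases were 10752, 11421, 4050 and 7064 bp and where the TBX5 KO signal was called as 4 and 6 separate peaks. The strongest Rbm20 site, chr19:53829354-53835613, stood at percentile 96.7 and 97.5 in control and at 87.3 and 88.6 in TBX5 KO in lists of equal length.

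Among the sites of the 10 genes, 15 covered at least 5 kb in both control libraries, and 7 of the 15 were at Rbm20. All 15 were called in all 4 libraries. Their median ratio of covered bases was 0.404, against 0.713 over all 1269 sites of that extent in the series. Sites picked for their extent in control tend to be narrower elsewhere, and this applies to both values.

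**Figure D4:**
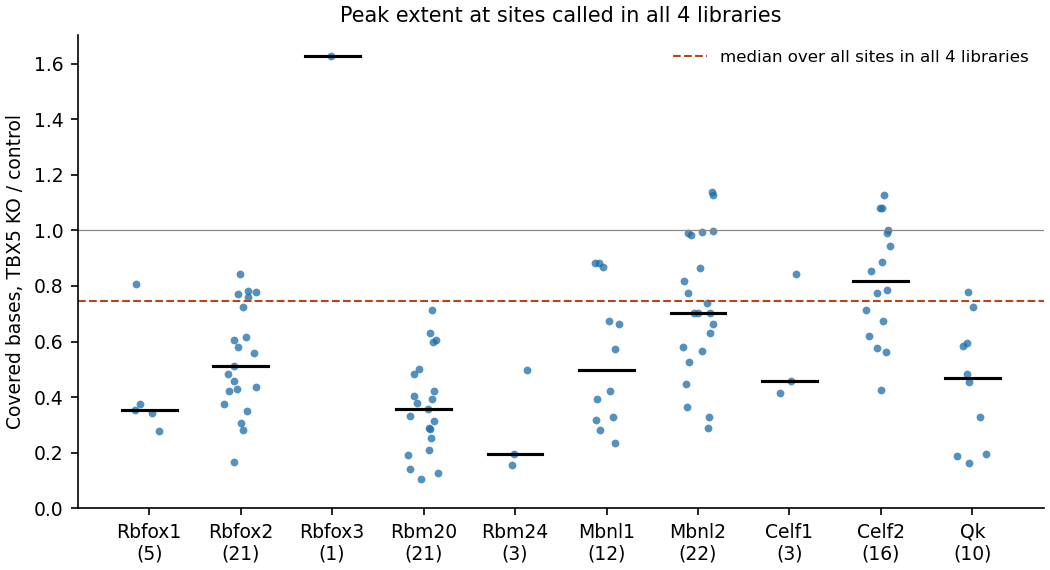
Covered bases in TBX5 KO over control (mean of 2 libraries each) at every site called in all 4 libraries, 1 point per site, with the gene's median as a black bar, the median of all such sites as a dashed line and the number of sites in parentheses. Points above 1 occur only at Rbfox3, Mbnl2 and Celf2, and the medians run from 0.194 at Rbm24 to 1.63 at Rbfox3, which has 1 site.

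Rbm24 (chr13:46418102-46431099) encodes a regulator of muscle exons that acts in early heart development. The gene is short, 13.0 kb, and 5 of its 9 sites in both control libraries lie in its flanks. It had 10 and 10 peaks in control and 6 and 6 in TBX5 KO, and covered 17.8 and 17.3 kb against 2.75 and 3.71 kb (5.44-fold). Its widest control peaks, 7256 and 7300 bp in chr13:46426079-46433562, had in their place in TBX5 KO 3 and 4 peaks that together covered 1189 and 1642 bp. At its promoter window, shown above, the widest peak was 2104 and 3491 bp in control and 388 and 1077 bp in TBX5 KO. The strongest Rbm24 site, chr13:46412963-46415162, was upstream of the gene and covered 2148 and 1589 bp in control and 867 and 986 bp in TBX5 KO. It stood at percentile 79.4, 91.3, 77.2 and 21.0 of lists of equal length, so the TBX5 KO libraries differed widely from each other. The strongest control-only site, chr13:46406314-46408161, lay further upstream at percentile 76.7 and 79.8.

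The MBNL genes, whose proteins drive the switch from fetal to adult exons, each had a promoter window with a peak in every library. The other Mbnl1 window, at its first start, had no peak in any library. Mbnl1 (chr3:60472559-60629750) had 45 and 42 peaks in control and 20 and 31 in TBX5 KO, and 19, 23, 20 and 23 at equal list length. The strongest Mbnl1 site, chr3:60498305-60504045, lies over its second annotated start and covered 5716 and 5270 bp in control and 4381 and 5310 bp in TBX5 KO. It stood at percentile 96.7, 94.5, 95.1 and 93.7 of lists of equal length, so the groups overlapped in rank and in extent at that promoter. The 10 control-only sites compare with 9.18 from control rank, 9 of them lay below the median rank, and the strongest, chr3:60611876-60612331, stood at percentile 66.7 and 56.7.

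Mbnl2 (chr14:120275652-120431698) had the lowest control-only share in the full lists with all 4 libraries. With −log10 q of at least 5 it was 22.2% (6 of 27), above the 20% of Mbnl1 and the 21.4% of Celf2. It had 54 and 57 control peaks against 38 and 53 in TBX5 KO, so control library 1 exceeded TBX5 KO library 2 by 1 peak only. Of its 32 sites common to the control libraries, 22 (68.8%) had peaks in all 4 libraries and 3 were control-only, against 7.23 from control rank. The strongest control-only site, chr14:120384382-120385100, stood at percentile 21.6 and 40.3. At equal list length 0 of 25 sites were control-only, and the peak numbers were 31, 37, 38 and 48, higher in TBX5 KO. Its promoter site, chr14:120274951-120281386, covered 6200, 5887, 5621 and 4847 bp in control 1 and 2 and TBX5 KO 1 and 2, and stood at percentile 94.7, 94.8, 89.2 and 80.3 of lists of equal length in the same order. Covered DNA at Mbnl2 was 67.6 and 63.0 kb in control and 32.2 and 46.0 kb in TBX5 KO (1.67-fold), the smallest ratio of the 10 genes.

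Among the CELF genes, whose products favour fetal exons, Celf1 (chr2:90940259-91019497) had few sites. It had 6 and 8 control peaks against 6 and 7 in TBX5 KO, and was the only member whose groups overlapped in peak number. Its promoter site, chr2:90939687-90942240, stood at percentile 93.1, 90.7, 94.2 and 94.1 of lists of equal length, with 2554, 1317, 1457 and 1812 bp covered, and was not lower in TBX5 KO in rank. The widest control peak of Celf1, 2558 bp in control 2, lay in chr2:90964534-90967167, which covered 1984, 2558, 1097 and 793 bp. The single control-only site, chr2:90961676-90962166, stood at percentile 19.6 and 19.8.

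Celf2 (chr2:6539694-7396341) spans 857 kb and had 59 and 48 peaks in control and 28 and 32 in TBX5 KO, with 22, 23, 28 and 27 at equal list length. Its 10 control-only sites of 34 compare with 12.3 from control rank, and all 10 lay below the median rank. The strongest of them, chr2:7067721-7068641, stood at percentile 42.5 and 51.6. Celf2 was also the member whose shared sites kept most of their extent apart from the single shared site of Rbfox3: the median ratio of covered bases was 0.819, and 6 of 16 shared sites were narrower in each TBX5 KO library. Its strongest site, chr2:7241111-7242887, covered 1777 and 1422 bp in control and 1418 and 1413 bp in TBX5 KO, a ratio of 0.885. The percentile of that site in lists of equal length was 87.7 and 89.7 in control against 63.7 and 67.5 in TBX5 KO. The widest control peak, 2683 bp in control 2, lay at a promoter window in chr2:7080238-7082920, which covered 2537, 2683, 1143 and 1069 bp. All 3 Celf2 promoter windows with a peak had one in every library.

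Qk (chr17:10206471-10319361) encodes QKI, a STAR-family RNA-binding protein of muscle and glia. It had 58 and 63 peaks in control and 17 and 24 in TBX5 KO (2.95-fold), and 27, 25, 17 and 16 at equal list length, with no overlap between groups in either case. Its promoter site was among the strongest of every list. That site, chr17:10311471-10322751, over the CG-rich stretch shown above, stood at percentile 96.5, 98.0, 99.0 and 97.7 of lists of equal length. Covered bases at that site were still lower in TBX5 KO, at 10272, 10484, 3669 and 6393 bp. Of the 36 Qk sites in both control libraries, 32 lay below the median control rank, and 16 of the 17 control-only sites were among them. The strongest control-only site, chr17:10223867-10225108, stood at percentile 47.6 and 75.4. By control rank alone 14.8 would have been control-only.

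**Figure D5:**
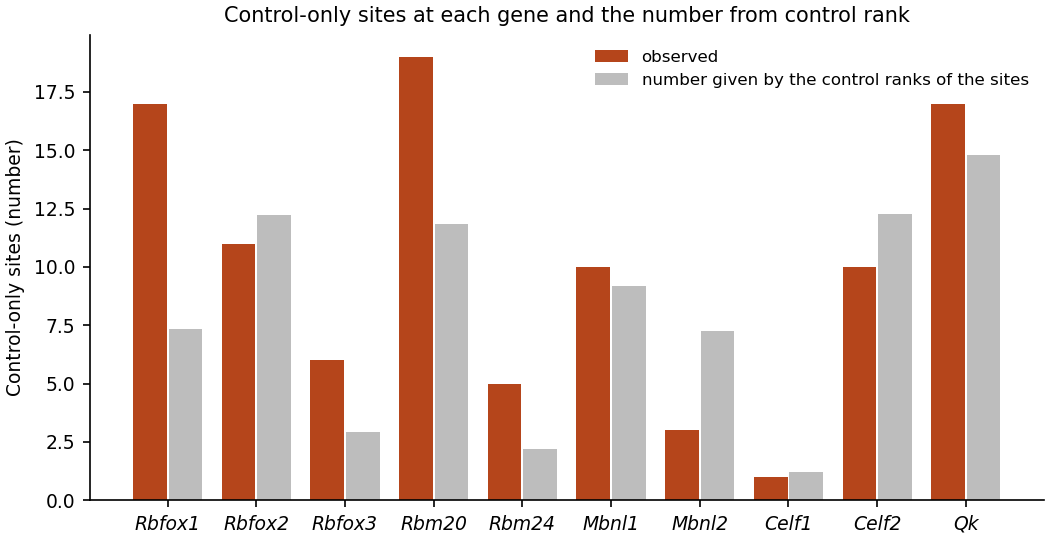
Number of control-only sites at each gene beside the number that the control ranks of its sites would give if each site had the control-only share of its decile over the whole series. Rbfox1 has 17 against 7.34 and Rbm20 19 against 11.9, while Mbnl2 has 3 against 7.23.

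Control-only sites were mostly weak sites outside promoter windows, at the members as in the whole series. Of the 99 at the members 87.9% lay below the median control rank and 98.0% overlapped no promoter window, against 86.5% and 97.9% of all control-only sites. Below the median control rank 87 of 163 member sites (53.4%) were control-only, against 43.2% of all sites in that range, and above it 12 of 106 (11.3%), against 6.72%. The deciles of these member sites would have given 44.9% below and 7.59% above. Of 256 member sites that overlapped no promoter window of any gene, 97 (37.9%) were control-only, against 29.1% of all such sites and 30.0% of those inside gene bodies. By control rank 31.0% of the 256 would have been control-only. Of the 13 member sites that did overlap a promoter window, 2 were control-only, against 3.23% over all. Control rank alone would have given 1.87 of the 13, and 7.63% over all such sites. In lists of equal length the rank of a site can be compared between libraries: at 91 member sites in all 4 libraries the median shift, TBX5 KO minus control, was −10.0 percentile points, and over all 33392 such sites it was 0.352. The shift was −19.9 at the 21 Rbm20 sites, which weigh on the pooled value, −7.49 at 17 Mbnl2 sites and 3.35 at 10 Celf2 sites. It was −6.10 at 18 Rbfox2 sites, −5.72 at 10 Mbnl1 sites and −13.5 at 6 Qk sites. With 3 sites each it was −45.5 at Rbfox1, −19.9 at Rbm24 and −5.53 at Celf1, and Rbfox3 had no such site.

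Other splicing genes give the context. Of 26 paralogues and further tissue-restricted regulators, 24 had sites in both control libraries, and 25 of their 88 sites (28.4%) were control-only. The largest numbers were 5 of 10 at Khdrbs3 (the STAR protein SLM2), 4 of 6 at Nova2 (a neuronal splicing factor) and 3 of 7 at Rbm38 (a paralogue of Rbm24). Among 26 general splicing factors the share was 33 of 129 (25.6%), led by Hnrnpm with 4 of 7, Srsf10 with 4 of 10 and Hnrnpc with 3 of 4. Both lists lay near the 24.9% of all sites. Control rank would have given 24.5% at the tissue-restricted regulators and 29.8% at the general factors.

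Genes whose transcripts RBM20 is known to regulate had a higher share. It was 176 of 400 sites (44.0%) over 16 genes, led by the ryanodine receptor gene Ryr2 with 68 of 77, the calcium channel gene Cacna1c with 28 of 64 and titin, Ttn, with 13 of 39. Without Ryr2 it was 108 of 323 (33.4%). Control rank would have given 30.8% with Ryr2 and 28.2% without it. Pdlim3, Rtn4 and Tpm1 had no control-only site. Whether the sites at these genes relate to those at Rbm20 was not tested.

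The tissue label cannot be checked against expression in these lists. Sites called in both control libraries lay at 6 of 6 atrial cardiomyocyte marker genes and 5 of 5 fibroblast marker genes. They also lay at 5 of 5 endothelial and 6 of 9 neuron and ganglion marker genes. Of all 21887 protein-coding genes 15392 had such a site, so these counts do not show which cell types were present. The control-only shares at these marker lists, in the same order, were 15 of 40 (37.5%), 4 of 33 (12.1%), 9 of 43 (20.9%) and 2 of 11 (18.2%). Over all sites the share was 24.9%. Actn2 alone held 11 of the 15 at the cardiomyocyte markers, and without it the share there was 4 of 14 (28.6%). The part of cell composition in the results for the splicing regulators was not tested.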

How the data were processed

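CHD4 ChIP-seq peak lists of 4 libraries were used. Separate data of the 4 input libraries were not used here. Per the submitters' processing notes the tools were MACS2 and DiffBind, without versions, on build mm10. Each list belongs to 1 library. Which aligner was used is not given in the sources used here. For each peak the authors deposited an interval, a score, a fold over local background, a −log10 p and a −log10 q. The lowest deposited −log10 q of a list was 1.30 to 1.31. They rank or filter peaks of 1 list only, since a peak not called may lie just under the threshold.

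Gene bodies and promoter windows came from RefSeq tables of GRCm38.p6, without exons. Peaks were joined at 1 bp overlap, and percentiles rank −log10 p within a list, 100 being the strongest. A site's covered bases are the sum of its peaks in 1 library. Genes that overlap within 10 kb share sites. Group means were tested by exact permutation, two-sided, and shares carry Wilson intervals. Site building was tested on simulated data. Python 3.11.15, numpy 2.4.6, pandas 2.3.3, scipy 1.17.1 and matplotlib 3.10.9 were used.

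All 10 genes are named, each with its strongest site, strongest control-only site and widest control peak, and up to 3 genes with the most control-only sites from each list. Members and lists were chosen with earlier results of these data known. The other broad sites, and the positions around the Rbfox1 starts, were picked after their values were seen. Alternatives were equal list lengths, a −log10 q of at least 3 or 5, gene bodies without flanks, stricter overlap, summits within 250 bp, each library left out, a replicate block, exchanged groups, and, added after the data were seen, the members without Rbm20 and sites at no other gene.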

Additional observations from a re-analysis of the deposited data

How the results depend on the processing

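With the groups exchanged, as the genotype and treatment fields would have it, the differences became −186 peaks and −293 kb, the control-only share 0% and the number of TBX5 KO-only sites 99. The control-only share was 43.9% with −log10 q of at least 5 and 24.5% in lists of equal length, and from 41.5 to 53.4% without 1 library. Over all sites the share was 29.1%, 14.8% and 31.3 to 40.6%. TBX5 KO-only sites numbered 4 in lists of equal length, 2 at an overlap of 50% of the shorter peak (1.65%, against 1.96% over all sites) and 10 for summits within 250 bp (8.62% of sites in both TBX5 KO libraries, against 8.08% over all sites), and from 1 to 22 without 1 library (1 without control 1, 3 without control 2, 22 without TBX5 KO 1 and 15 without TBX5 KO 2, or 0.833%, 2.5%, 10.9% and 10.1%, against 5.22%, 3.42%, 11.7% and 9.45% over all sites). With the replicate block, the paired differences averaged 186 peaks and 293 kb, each with an exact sign-flip p of 0.5, the smallest that 2 pairs allow. Shared numbers in the titles are not stated to mark a shared animal or day. The other alternatives left these results on the same side. Of 100 single-gene shares recomputed without exchanging groups, 75 lay within the gene's own interval and 25 outside it. Over all sites the share also moved with a −log10 q of at least 5, equal list length or a library left out. Whether any gene moved beyond that shift was not tested. The number of libraries and the unknown depth limit every comparison.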
